A study of Mus musculus with 27 samples.

Results

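The 8 genes described here, Phgdh, Psat1, Psph, Shmt1, Shmt2, Mthfd1, Mthfd1l and Mthfd2, encode enzymes that make serine and pass its carbon into the folate pool. They were picked by symbol as members of this pathway, under a rule that has no threshold on measured values but was written with earlier results of these data known, and are 8 of the 54532 genes in the count tables. RNA-seq was performed on splenic B cells of WT C57BL6 mice, purified magnetically by removing other cells and kept 3 h in culture, in 27 libraries. In experiment 1, 4 libraries each came from B cells left unstimulated, B cells given LPS (a bacterial lipopolysaccharide that acts without T cells) or IL-4+anti-CD40 (a mimic of T cell help), and cells that received 1 μM disulfiram as well as either stimulus (DSF, a drug used against alcohol dependence). In experiment 2, each of 7 conditions had 1 library: these 5 and either stimulus with 1 μM ibrutinib, an inhibitor of the kinase Btk. The groups without an inhibitor received DMSO, the vehicle. The paper's legends call the DSF and ibrutinib cells pre-treated and count the 3 h from stimulation. The length of the pre-treatment is not given. The paper calls the 4 libraries of a group biologically independent samples, but neither it nor the labels say whether these came from separate mice. The p-values therefore measure only the spread between these samples.

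Serine is made from the glycolytic intermediate 3-phosphoglycerate by the dehydrogenase Phgdh, the aminotransferase Psat1 and the phosphatase Psph in turn. The hydroxymethyltransferases Shmt1, mainly in the cytosol, and Shmt2, in mitochondria, split serine into glycine and a carbon unit that they load onto tetrahydrofolate. In mitochondria, Mthfd2 oxidises this unit and Mthfd1l releases it as formate, and in the cytosol the trifunctional enzyme Mthfd1 loads formate onto tetrahydrofolate again and can reduce it. The loaded folates are used for purine rings, for thymidylate and for the methylation of homocysteine. Activated lymphocytes are known to raise mitochondrial folate metabolism before they divide.

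The genes lie on 7 chromosomes of GRCm38 (mm10), at the same spans in the count tables and in GENCODE vM21. The serine synthesis genes are Phgdh (ENSMUSG00000053398, chromosome 3, 98313170 to 98339990), Psat1 (ENSMUSG00000024640, chromosome 19, 15904678 to 15947337) and Psph (ENSMUSG00000029446, chromosome 5, 129765558 to 129787449). The cytosolic folate genes are Shmt1 (ENSMUSG00000020534, chromosome 11, 60788104 to 60811718) and Mthfd1 (ENSMUSG00000021048, chromosome 12, 76255298 to 76319803). The mitochondrial folate genes are Shmt2 (ENSMUSG00000025403, chromosome 10, 127517123 to 127522444), Mthfd2 (ENSMUSG00000005667, chromosome 6, 83305691 to 83325908) and Mthfd1l (ENSMUSG00000040675, chromosome 10, 3973118 to 4167081). All spans except that of Phgdh overlap another annotated gene, namely Gm3329 (Psat1), Cct6a (Psph), Smcr8 and Gm24945 (Shmt1), Gm47525, Gm47526 and Gm34868 (Mthfd1), Ndufa4l2 (Shmt2), Gm43890 (Mthfd2), and Gm16074 and Gm25515 (Mthfd1l). The strand setting of the counting is not given in the sources used here, so reads in shared stretches cannot be assigned with certainty.

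The 250 bases before the transcription start were read from RefSeq (GRCm38.p6) for all 8 genes, 1 start each except for Psat1, which had 2. They were searched on both strands for CCAAT (the box bound by NF-Y), CACGTG (the E-box of Myc and Max), TGATGNAA (the composite element of C/EBP and ATF factors) and GCGCATGC (the NRF1 core). Shown are the promoters of Mthfd2, the member that was higher with DSF under both stimuli of experiment 1, Mthfd1, the member that fell most with DSF, and Psat1, the member that moved in opposite directions. Each is written 5′ to 3′ along its gene and ends at the base before the start, and the capitals mark CCAAT or its reverse complement. The RefSeq starts of Mthfd2 and Psat1 lie inside the spans these genes have in the count tables.
Mthfd2 promoter (chr6:83317605-83317854, minus strand): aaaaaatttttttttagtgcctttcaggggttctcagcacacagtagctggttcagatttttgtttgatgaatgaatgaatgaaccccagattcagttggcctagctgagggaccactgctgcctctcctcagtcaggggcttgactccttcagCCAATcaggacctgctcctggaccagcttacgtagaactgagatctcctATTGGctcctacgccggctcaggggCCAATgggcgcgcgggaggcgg
Mthfd1 promoter (chr12:76254982-76255231, plus strand): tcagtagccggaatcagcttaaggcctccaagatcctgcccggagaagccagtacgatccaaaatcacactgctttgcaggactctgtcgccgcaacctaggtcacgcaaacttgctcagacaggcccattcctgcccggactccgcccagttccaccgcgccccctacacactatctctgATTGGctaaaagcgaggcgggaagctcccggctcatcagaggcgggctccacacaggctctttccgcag
Psat1 promoter (chr19:15925060-15925309, minus strand): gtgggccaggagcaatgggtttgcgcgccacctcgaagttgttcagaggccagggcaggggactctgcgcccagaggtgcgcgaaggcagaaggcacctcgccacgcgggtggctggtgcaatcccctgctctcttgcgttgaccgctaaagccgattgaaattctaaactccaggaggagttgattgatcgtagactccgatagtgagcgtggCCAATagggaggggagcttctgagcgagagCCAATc
Mthfd2 held 3 CCAAT boxes, whose leftmost bases lay 96, 47 and 22 bases before the start, and at least 3 were found in 2.79% of the 32851 promoters of this length. Psat1 held 2 at the start shown and 0 at its other start, Phgdh and Psph held 2 each, Mthfd1 and Shmt1 1 each, and Shmt2 and Mthfd1l 0. At least 1 box was found in 33.8% of all promoters. Shmt2 held a pair of overlapping NRF1 cores, on opposite strands, 19 and 17 bases before its start, and 2.26% of promoters held at least 1. The E-box and the C/EBP-ATF element, found in 6.02% and 3.45% of all promoters, had 0 matches in these windows. The matches are descriptions of these letters, not sites shown to be bound.

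Total counts per library were between 17804851 and 23632992 (median 20348459) in experiment 1 and between 16049295 and 24619776 (median 18722471) in experiment 2. The 8 genes had from 135 counts (the lowest for Psph) to 16319 counts (the highest for Shmt2) in a library, and all 8 passed edgeR's filter in every comparison. All 6 B cell markers had at least 1551 counts in every library of experiment 1. T, NK and erythroid cell markers were low, at 0.736 to 6.87, 0.112 to 2.29 and 0.458 to 11.0 CPM (counts scaled to library size) summed over each list. Myeloid markers summed to 520.0 to 641 CPM in unstimulated B cells and to 134 to 266 CPM in the other groups, with Lyz2 at 1082 counts or more in each library and 0 of the 5 markers at 0. Fewer cells of a type and less RNA per cell cannot be told apart in such samples. The unstimulated libraries fell into a pair, 1 and 2, and another pair, 3 and 4. Most values of the 8 genes against them are therefore also given for either pair alone. The IL-4+anti-CD40 libraries split in the same way, less strongly: the chi-square per gene was 3.49 between 1 and 2 and 6.41 between 3 and 4 but 15.6 to 27.2 across these pairs, against 2.86, 6.64 and 84.8 to 90.8 in unstimulated B cells. All 8 genes were higher in libraries 1 and 2 than in 3 and 4 of the IL-4+anti-CD40 group, which is the control for DSF, so each pair of it was also used alone.

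In experiment 1, DSF changed most of the folate genes in stimulated B cells, downwards with the exception of Mthfd2. The serine synthesis genes changed by 1.26-fold or less there. In experiment 2 (1 library per condition), Phgdh was 2.05-fold lower with LPS and 2.98-fold under IL-4+anti-CD40, and Psph 1.84-fold and 2.10-fold. Psat1 was 1.24-fold and 2.15-fold lower, and Mthfd2 was lower under IL-4+anti-CD40 (log2 ratio -0.16). In LPS-stimulated B cells of experiment 1, 5 of the 8 genes fell and 2 rose (quasi-likelihood test in edgeR, p adjusted over all genes, threshold 0.05, 4 libraries per group), where 36.0% of 14154 genes tested fell and 35.1% rose. Under IL-4+anti-CD40, 6 fell and 1 rose, where 31.6% of 14275 genes fell and 30.1% rose. The median log2 fold changes over the 8 genes were -0.30 (LPS) and -0.47 (IL-4+anti-CD40), beside 0.0019 and -0.015 over all genes tested. Scaling by total counts alone moved the median gene to -0.21 and -0.16 and turned 4966 raised and 5096 lowered genes into 3473 and 6680 with LPS, and 4301 and 4514 into 3262 and 5832 under IL-4+anti-CD40.

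Mthfd1, the cytosolic trifunctional enzyme, fell most of the 8 under both stimuli. Its levels with LPS were 28.2, 28.0, 27.7 and 27.5 FPKM (fragments scaled to gene length and library size) in libraries 1 to 4, and with LPS and DSF 11.0, 12.04, 11.5 and 11.3. Under IL-4+anti-CD40 they were 39.0, 40.4, 35.1 and 30.1 FPKM, and with DSF added 14.97, 14.3, 13.4 and 13.8. The groups did not overlap under either stimulus, and every DSF library with LPS lay below every unstimulated library as well (18.1, 17.2, 14.6 and 14.2 FPKM). The fall was 2.40-fold with LPS (log2 fold change -1.26, SE 0.044, adjusted p = 1.76e-18) and 2.59-fold under IL-4+anti-CD40 (-1.38, SE 0.083, adjusted p = 8.65e-07). With IL-4+anti-CD40 libraries 1 and 2 or 3 and 4 alone as the control, the 4 folate genes that fell did so with either pair, from -1.50 and -1.23 for Mthfd1 to -0.78 and -0.58 for Shmt2.

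Shmt1, the other cytosolic member, fell less. It stood at 14.6, 15.5, 14.4 and 14.9 FPKM with LPS and at 10.6, 10.3, 10.4 and 9.81 with LPS and DSF. Under IL-4+anti-CD40 it stood at 25.7, 27.1, 22.4 and 20.6 FPKM, and with DSF added at 12.8, 13.5, 13.6 and 13.5. Under both stimuli all DSF libraries were below all libraries with that stimulus alone and above all unstimulated libraries (4.19 to 7.14 FPKM). The fall was 1.42-fold with LPS (-0.51, SE 0.052, adjusted p = 3.16e-09) and 1.82-fold under IL-4+anti-CD40 (-0.86, SE 0.078, adjusted p = 4.37e-06).

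Of the mitochondrial members, Shmt2 and Mthfd1l fell and Mthfd2, which works between them, rose. Shmt2, which loads the carbon unit, had 119.5, 118, 107 and 106 FPKM with LPS and 78.4, 79.6, 84.0 and 85.3 with LPS and DSF. It had 198, 207, 174 and 177 FPKM under IL-4+anti-CD40 and 111, 115, 121 and 128 with DSF added. The groups did not overlap, and the falls were 1.36-fold (-0.45, SE 0.045, adjusted p = 3.13e-09) and 1.61-fold (-0.69, SE 0.067, adjusted p = 6.52e-06).

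Mthfd1l, which releases formate, had 22.1, 22.0, 21.5 and 22.4 FPKM with LPS and 13.6, 15.6, 15.4 and 15.3 with LPS and DSF. Under IL-4+anti-CD40 it had 29.2, 32.7, 26.2 and 24.8 FPKM, and 17.0, 16.5, 16.6 and 16.7 with DSF added. The groups were again apart, by 1.45-fold (-0.54, SE 0.046, adjusted p = 1.58e-10) and 1.71-fold (-0.78, SE 0.074, adjusted p = 5.83e-06).

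Mthfd2, the mitochondrial dehydrogenase, had 37.7, 38.1, 39.3 and 37.6 FPKM with LPS and 48.3, 50.7, 55.1 and 56.6 with LPS and DSF, which did not overlap. This rise was 1.40-fold (0.48, SE 0.046, adjusted p = 8.95e-10), or 0.27 on the log2 scale with total counts alone (adjusted p = 5.13e-06). Under IL-4+anti-CD40 it had 58.9, 62.6, 56.9 and 57.2 FPKM and with DSF added 62.7, 63.5, 68.0 and 70.8, groups that only just failed to overlap. The second rise was 1.11-fold (0.15, SE 0.053, adjusted p = 0.0295) and weak: it was 0.00 (adjusted p = 0.99) with total counts alone. This call was also lost without replicate 1, 3 or 4 of the IL-4+anti-CD40 libraries or replicate 3 or 4 of the DSF libraries, with log2 fold changes between 0.12 and 0.18, and it was 0.20 (adjusted p = 0.0156) against libraries 3 and 4 and 0.12 (adjusted p = 0.107) against libraries 1 and 2.

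The serine synthesis genes changed by 1.26-fold or less with DSF in experiment 1. Psat1, the aminotransferase, had 20.2, 20.2, 20.1 and 19.7 FPKM with LPS and 23.4, 24.8, 24.6 and 26.8 with LPS and DSF, a rise without overlap of 1.26-fold (0.33, SE 0.045, adjusted p = 3.75e-07). With total counts alone this rise was 0.12 (adjusted p = 0.0143). Under IL-4+anti-CD40 it had 35.6, 36.0, 32.0 and 32.5 FPKM and with DSF added 30.7, 30.8, 31.3 and 32.9, which overlapped. Here it fell by 0.13 on the log2 scale (SE 0.053, adjusted p = 0.046), a call that was lost with DESeq2 (-0.12) and without replicate 1 or 2 of the IL-4+anti-CD40 libraries or replicate 1, 2 or 3 of the DSF libraries, with values between -0.16 and -0.10 over all libraries left out. It was -0.06 (adjusted p = 0.406) against libraries 3 and 4 and -0.20 (adjusted p = 0.00407) against libraries 1 and 2.

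Phgdh, the dehydrogenase at the head of the pathway, had 39.0, 43.9, 42.4 and 43.3 FPKM with LPS and 32.4, 36.3, 38.1 and 42.2 with DSF added, an overlap. The fall of 0.16 on the log2 scale (SE 0.058, adjusted p = 0.0176) became -0.10 (adjusted p = 0.0888) without replicate 1 of the LPS and DSF libraries. Under IL-4+anti-CD40 it had 73.9, 76.6, 64.8 and 66.1 FPKM, all above the 56.3, 57.8, 62.5 and 64.1 with DSF (-0.24, SE 0.065, adjusted p = 0.00663). This fall was -0.14 (adjusted p = 0.0706) against IL-4+anti-CD40 libraries 3 and 4 and -0.33 (adjusted p = 0.00026) against libraries 1 and 2, and under LPS it was -0.37 with total counts alone.

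Psph, the phosphatase, was the lowest member, with 1.97, 1.76, 2.05 and 2.44 FPKM with LPS and 1.87, 2.40, 2.03 and 2.13 with LPS and DSF. Under IL-4+anti-CD40 it had 3.54, 3.83, 3.36 and 3.25 FPKM and with DSF added 3.11, 2.78, 3.89 and 3.64. The groups overlapped under both stimuli. Its change did not pass the test with LPS (0.06, 95% interval -0.17 to 0.30, adjusted p = 0.638) or under IL-4+anti-CD40 (-0.08, 95% interval -0.32 to 0.17, adjusted p = 0.578).

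**Figure D1:**
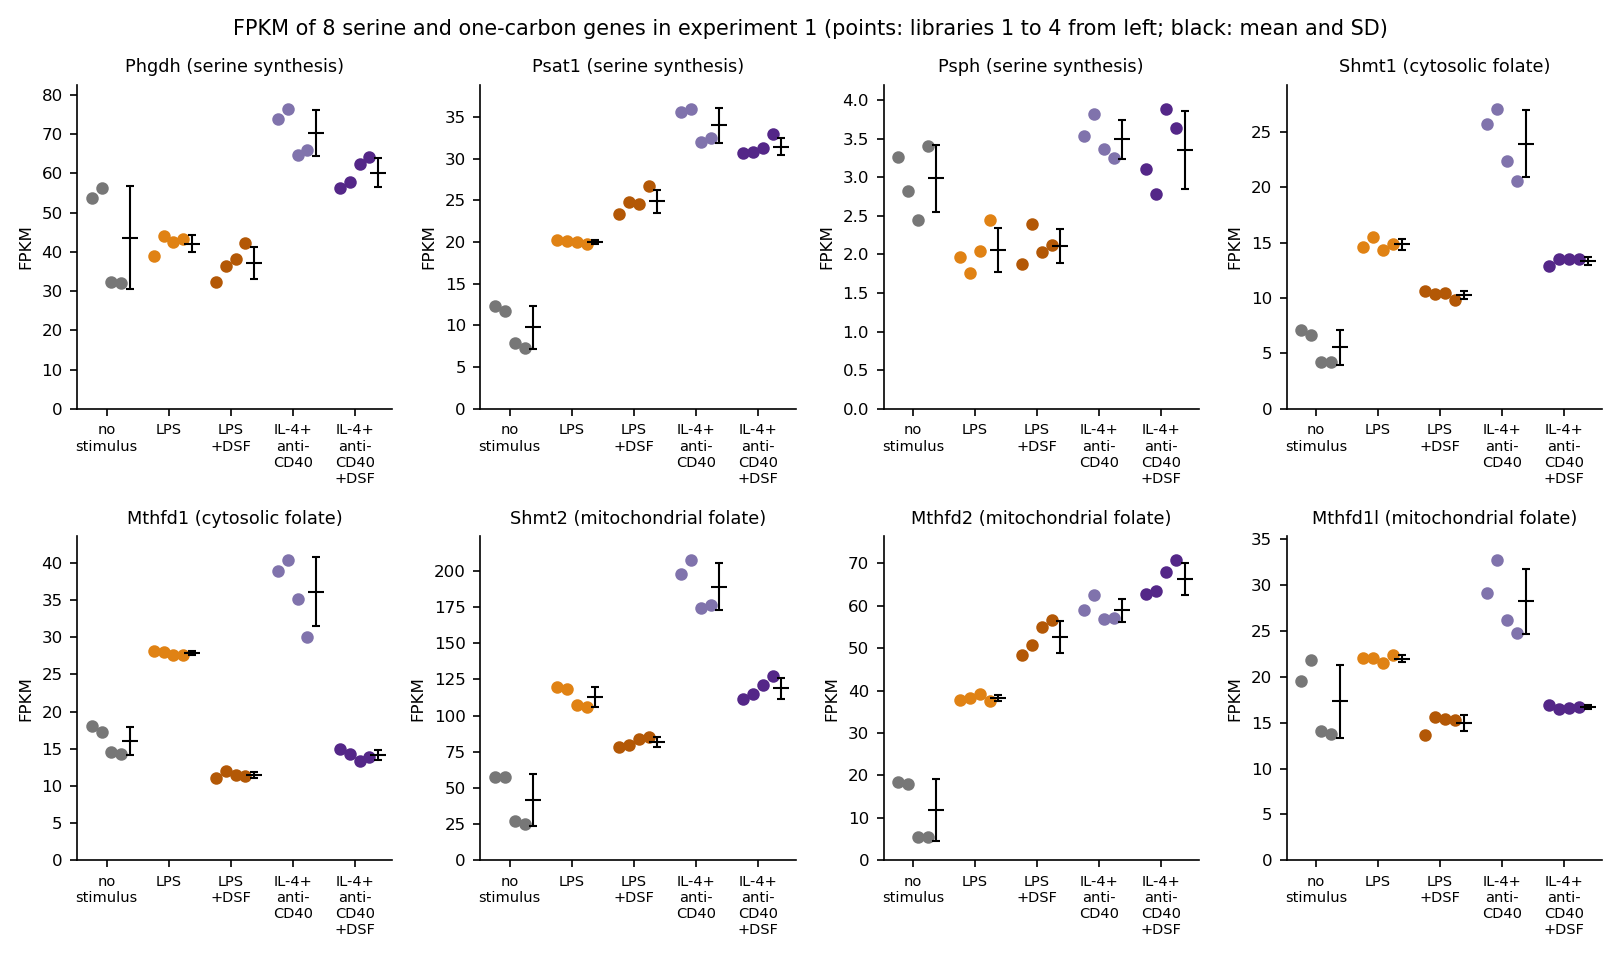
FPKM (vertical axes, from 0) of the 8 genes in each library of experiment 1, by group, with the mean and SD of the 4 libraries in black. Mthfd1 with DSF lies at 11.0 to 14.97 FPKM under both stimuli. Mthfd2 under LPS lies at 48.3 to 56.6 FPKM with DSF and 37.6 to 39.3 without DSF. Under IL-4+anti-CD40 it lies at 62.7 to 70.8 FPKM with DSF and 56.9 to 62.6 without DSF. The unstimulated libraries 1 and 2 lie above 3 and 4 for every gene except Psph.

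Other readouts moved with DSF as well. The summed CPM of 6 B cell markers was 4354 to 4455 with LPS and 3008 to 3190 with DSF added, and 3899 to 4340.0 under IL-4+anti-CD40 and 3159 to 3342 with DSF. Myeloid markers were 134 to 155 and 142 to 152 CPM with LPS, and 152 to 178 and 206 to 266 CPM under IL-4+anti-CD40, without and with DSF. The share of counts on mitochondrially encoded genes was 1.69% to 1.79% and 1.81% to 1.97% with LPS, and 1.52% to 1.76% and 1.91% to 2.08% under IL-4+anti-CD40. Plasma cell markers summed to 237 to 253 and 343 to 383 CPM with LPS, and to 369 to 383 and 436 to 459 CPM under IL-4+anti-CD40. Their part in the changes of the 8 genes was not tested.

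The difference between the DSF effects under the 2 stimuli was tested as an interaction over 16 libraries. It passed the threshold for 3 of the 8 genes, each with a more negative effect under IL-4+anti-CD40, and for 0 in the other direction, where 7.92% of 15130 genes were lower and 6.96% higher (1199 and 1053 genes, or 826 and 1423 with total counts alone). Psat1 differed by -0.46 on the log2 scale (SE 0.072, adjusted p = 0.000176), Shmt1 by -0.35 (SE 0.095, adjusted p = 0.0166) and Mthfd2 by -0.33 (SE 0.077, adjusted p = 0.00663). Shmt2 (-0.24, adjusted p = 0.0715), Mthfd1l (-0.24, adjusted p = 0.0959), Psph (-0.13, 95% interval -0.48 to 0.21), Mthfd1 (-0.11, 95% interval -0.31 to 0.09) and Phgdh (-0.08, 95% interval -0.30 to 0.13) did not pass. Without replicate 4 of the IL-4+anti-CD40 libraries, 5 genes passed. With all 20 libraries in a single fit, 0 passed. With IL-4+anti-CD40 libraries 1 and 2 alone 6 genes passed, and with libraries 3 and 4 alone 2, Psat1 (-0.38) and Mthfd2 (-0.28), while Shmt1 did not (-0.19, adjusted p = 0.0744).

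**Figure D2:**
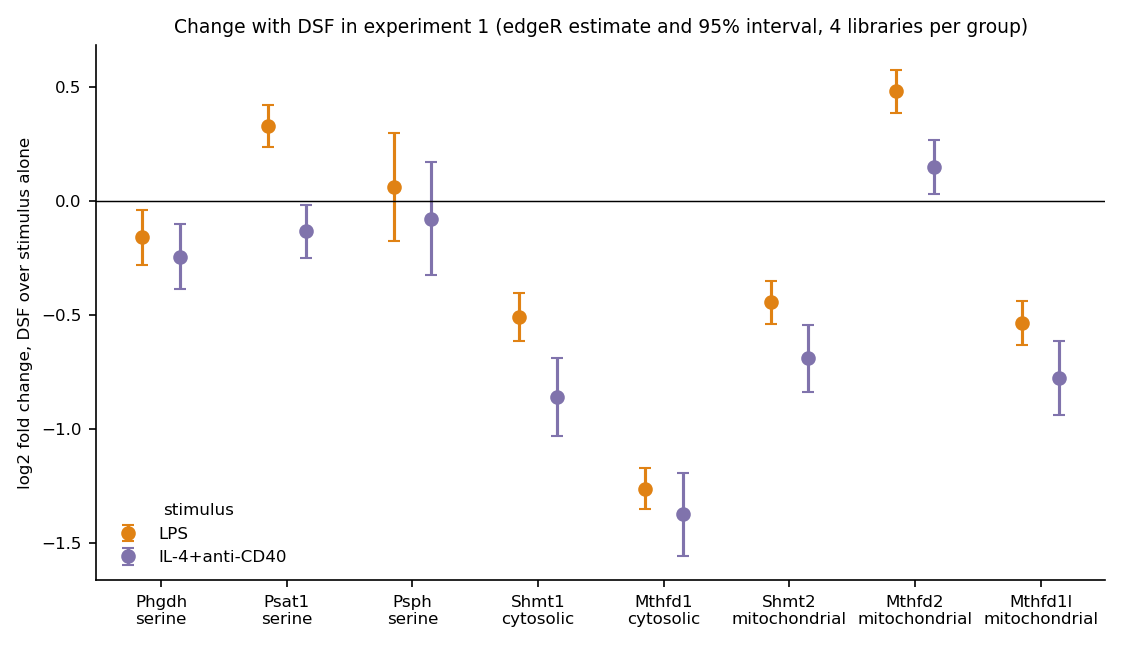
Log2 fold change (vertical axis) of each gene with DSF over the same stimulus alone in experiment 1, estimated by edgeR, with 95% intervals as bars. Mthfd1 lies lowest under both stimuli (-1.26 and -1.38), Mthfd2 above 0, and Psat1 above 0 with LPS and below 0 under IL-4+anti-CD40.

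Because Mthfd2 rose and Mthfd1 fell with DSF, the ratio of their FPKM changed more with DSF than either gene did. This pair was chosen after these changes were seen, so the separation of the DSF libraries of experiment 1 follows from that choice. Under IL-4+anti-CD40 it came mostly from Mthfd1, which fell 2.59-fold, as Mthfd2 rose only 1.11-fold. It was 1.34, 1.36, 1.42 and 1.37 in the LPS libraries and 4.39, 4.21, 4.79 and 5.02 with DSF added. It was 1.51, 1.55, 1.62 and 1.90 in the IL-4+anti-CD40 libraries and 4.19, 4.43, 5.09 and 5.11 with DSF added. All DSF libraries thus lay above all others, and the unstimulated libraries (1.02, 1.04, 0.379 and 0.392) lay below. The summed FPKM of the mitochondrial members over that of the cytosolic members was 3.91 to 4.20 with LPS, 6.49 to 7.46 when DSF was added, 4.42 to 5.10 under IL-4+anti-CD40 and 6.87 to 7.85 when DSF was added to it. The ratio of Shmt2 to Shmt1, by contrast, was 7.12 to 8.20 with LPS and 7.38 to 8.70 with DSF added, which overlapped. These ratios are descriptions and were not tested.

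**Figure D3:**
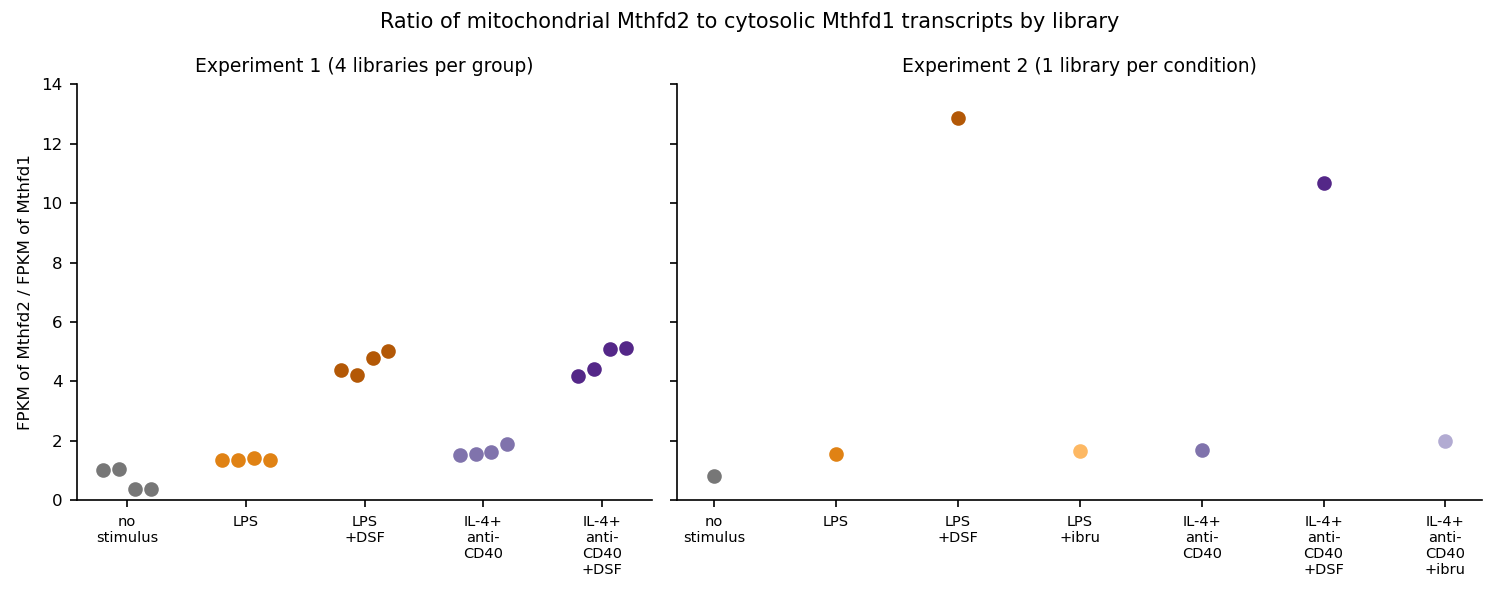
FPKM of Mthfd2 divided by FPKM of Mthfd1 (vertical axis, from 0) in each library, with experiment 1 at left and experiment 2 at right; ibru is ibrutinib. The DSF libraries lie at 4.19 to 5.11 in experiment 1 and at 10.7 and 12.9 in experiment 2, above every other library.

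Both stimuli raised most of the 8 genes within 3 h, Mthfd2 and Shmt2 of the mitochondrial folate genes most. LPS raised 6 genes and lowered 1, where 29.6% of 14477 genes rose and 33.3% fell, and 7 genes rose and 0 fell under IL-4+anti-CD40, where 30.4% of 14433 rose and 32.1% fell. Their median log2 fold changes were 0.93 (LPS) and 1.51 (IL-4+anti-CD40), beside -0.046 and -0.041 over all genes. With total counts alone the median gene lay at -0.27 and -0.19, and 4283 raised and 4818 lowered genes became 2903 and 6387 with LPS, and 4389 and 4633 became 3454 and 5574 under IL-4+anti-CD40.

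The unstimulated libraries were far apart for these genes. Mthfd2 had 18.4, 17.9, 5.54 and 5.58 FPKM in unstimulated libraries 1 to 4, and Shmt2 57.4, 57.3, 27.2 and 25.1. Phgdh had 53.7, 56.4, 32.4 and 32.1 FPKM, Psat1 12.3, 11.8, 7.86 and 7.25, Shmt1 7.14, 6.65, 4.22 and 4.19, and Mthfd1l 19.5, 21.9, 14.1 and 13.8. Libraries 1 and 2 were the higher pair in each case, whereas Psph (3.26, 2.83, 2.45 and 3.41) showed no such split. The median log2 ratio of libraries 1 and 2 over 3 and 4 was 0.67 for the 8 genes and -0.0075 over all 15449 genes with such a ratio, of which 7.70% were 2-fold or more higher and 8.38% lower. Summed B cell markers were 5305 to 5359 CPM in libraries 1 and 2 and 8249 to 8319 CPM in libraries 3 and 4, and neutrophil markers 30.4 to 31.5 and 5.72 to 8.95 CPM. Myeloid markers, at 520.0 to 641 CPM in the unstimulated libraries and 134 to 178 CPM in those with a stimulus alone, moved with the stimulus. The part of these markers in the split and in the changes below was not tested.

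Mthfd2 rose most, with log2 fold changes of 1.71 under LPS (SE 0.40, adjusted p = 0.00497) and 2.34 under IL-4+anti-CD40 (SE 0.40, adjusted p = 0.000864). Against unstimulated libraries 3 and 4 alone these values were 2.81 and 3.43, and against libraries 1 and 2 alone 1.10 and 1.70. Every stimulated library stood above every unstimulated one under either choice.

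Shmt2 rose by 1.45 (SE 0.27, adjusted p = 0.00152) and 2.21 (SE 0.28, adjusted p = 0.000148), and Shmt1 by 1.43 (SE 0.17, adjusted p = 0.000115) and 2.13 (SE 0.19, adjusted p = 2.26e-05), with LPS and under IL-4+anti-CD40. Psat1 rose by 1.05 (SE 0.16, adjusted p = 0.000455) and 1.82 (SE 0.17, adjusted p = 2.52e-05), and Mthfd1 by 0.81 (SE 0.077, adjusted p = 3.10e-05) and 1.20 (SE 0.11, adjusted p = 3.17e-05). These genes passed the test with either pair of unstimulated libraries. Against libraries 3 and 4 and against libraries 1 and 2, Shmt2 was at 2.14 and 1.00 with LPS and 2.88 and 1.73 under IL-4+anti-CD40, Shmt1 at 1.85 and 1.13 and at 2.53 and 1.80, Psat1 at 1.44 and 0.77 and at 2.19 and 1.51, and Mthfd1 at 0.98 and 0.69 and at 1.35 and 1.04. None of their stimulated and unstimulated libraries overlapped.

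Mthfd1l rose by 0.36 under LPS (SE 0.14, adjusted p = 0.0454) and by 0.73 under IL-4+anti-CD40 (SE 0.16, adjusted p = 0.00312). Against unstimulated libraries 3 and 4 these were 0.68 and 1.04, and against libraries 1 and 2 0.12 and 0.45. The call with LPS was lost with total counts alone (0.13) and without unstimulated replicate 3 or 4 or any 1 of the LPS libraries. Phgdh rose under IL-4+anti-CD40 by 0.71 (SE 0.19, adjusted p = 0.00879), at 1.15 against unstimulated libraries 3 and 4 and 0.36 against libraries 1 and 2, and without IL-4+anti-CD40 libraries 1 and 2 the call was lost (0.64, adjusted p = 0.0857), but its value with LPS was -0.03 (95% interval -0.45 to 0.39). That value turned from 0.42 (adjusted p = 7.88e-07) against unstimulated libraries 3 and 4 to -0.36 (adjusted p = 9.39e-07) against libraries 1 and 2, so its direction rests on which pair is used. Psph fell with LPS by 0.53 (SE 0.15, adjusted p = 0.0123), at 1.76 to 2.44 FPKM against 2.45 to 3.41, and its change under IL-4+anti-CD40 did not pass (0.25, 95% interval -0.053 to 0.54).

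**Figure D4:**
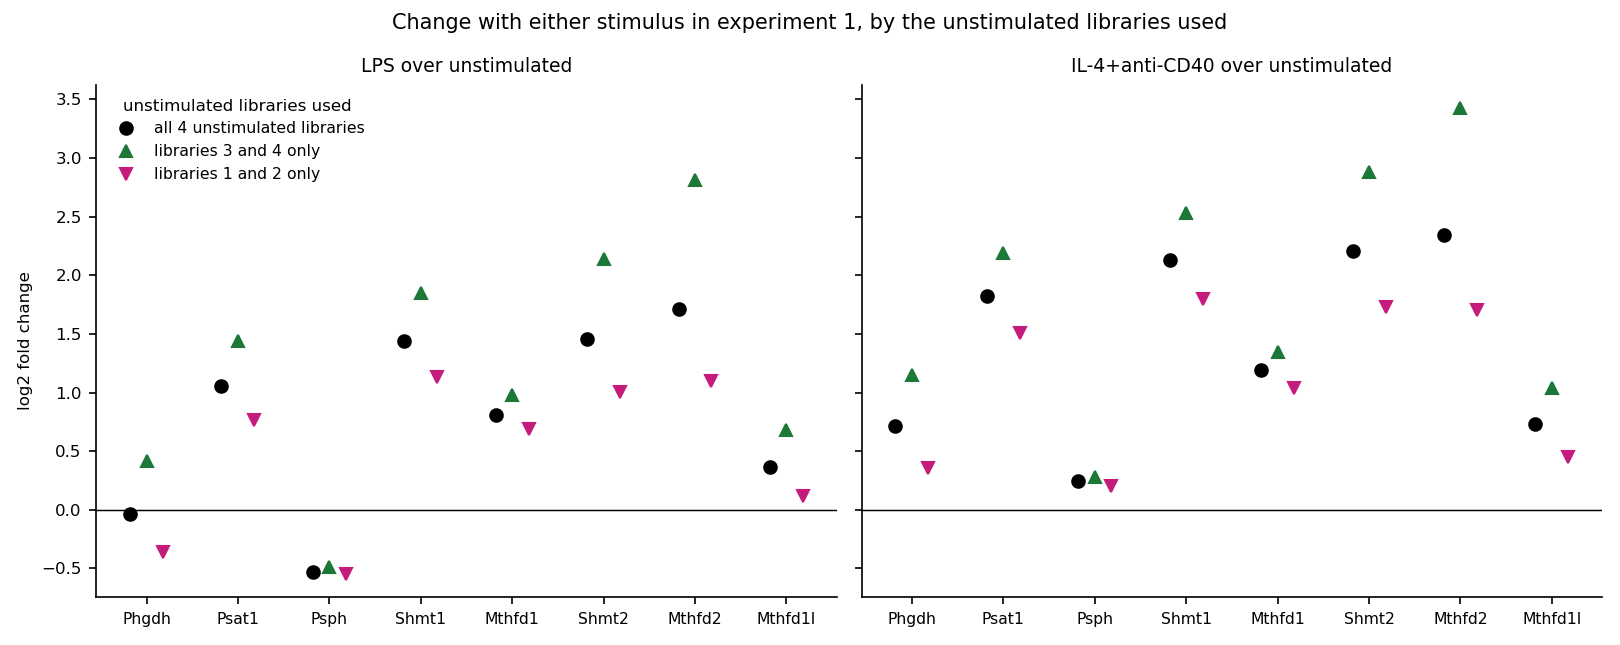
Log2 fold change (vertical axis) of each gene with LPS (left) or IL-4+anti-CD40 (right) over unstimulated B cells in experiment 1, with all 4 unstimulated libraries (circles), with libraries 3 and 4 alone (upward triangles) or with libraries 1 and 2 alone (downward triangles). Mthfd2 spreads most, from 1.10 to 2.81 with LPS, and Phgdh with LPS lies on both sides of 0.

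IL-4+anti-CD40 gave higher levels of all 8 genes than LPS did, in a test that uses no unstimulated library. All 8 passed the threshold and 0 were lower, where 17.3% of 14078 genes were higher and 22.3% lower. The differences ran from 0.31 (Mthfd1l, SE 0.072, adjusted p = 0.00475) and 0.33 (Mthfd1, SE 0.075, adjusted p = 0.00446) to 0.71 (Psat1, SE 0.049, adjusted p = 2.91e-07) and 0.72 (Psph, SE 0.11, adjusted p = 0.000184) on the log2 scale. Their median was 0.66, against 0.0062 over all genes. All 8 also passed with either pair of the IL-4+anti-CD40 libraries, Mthfd1l at 0.19 with libraries 3 and 4 and 0.43 with libraries 1 and 2 and Mthfd1 at 0.21 and 0.45. Total counts alone put the median gene at 0.14 and turned 2439 higher and 3145 lower genes into 4712 and 2428.

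With a stimulus and DSF together, the genes differed in where they stood relative to unstimulated B cells. Under LPS and DSF, 4 genes were higher and 2 lower, where 34.3% of 14663 genes were higher and 37.3% lower. Under IL-4+anti-CD40 and DSF, 5 were higher and 0 lower, where 33.4% of 14678 were higher and 35.3% lower. Total counts alone turned 5031 higher and 5464 lower genes into 3151 and 7453, and 4901 and 5178 into 3117 and 6760, with the median gene at -0.43 and -0.31. Mthfd2 (2.16 and 2.50), Psat1 (1.35 and 1.70), Shmt2 (0.98 and 1.52) and Shmt1 (0.90 and 1.28) were higher under both, the largest adjusted p being 0.00919 for Shmt2 with LPS. Against unstimulated libraries 3 and 4 and against libraries 1 and 2, Mthfd2 was at 3.24 and 1.51 under LPS and DSF and 3.58 and 1.85 under IL-4+anti-CD40 and DSF, Psat1 at 1.71 and 1.02 and at 2.06 and 1.37, Shmt2 at 1.64 and 0.49 and at 2.19 and 1.03, and Shmt1 at 1.28 and 0.55 and at 1.67 and 0.94. With total counts alone that Shmt2 value was 0.56 (adjusted p = 0.0978).

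Mthfd1 was lower than in unstimulated B cells under LPS and DSF by 0.48 on the log2 scale (SE 0.084, adjusted p = 0.000755), and its value under IL-4+anti-CD40 and DSF was -0.17 (adjusted p = 0.107). Mthfd1l did not pass under either (-0.20 and -0.04, adjusted p = 0.236 and 0.81), and its value under IL-4+anti-CD40 and DSF was 0.26 (adjusted p = 0.000902) against unstimulated libraries 3 and 4 and -0.32 (adjusted p = 0.000176) against libraries 1 and 2. Phgdh, at -0.22 (adjusted p = 0.332) and 0.48 (adjusted p = 0.0466), likewise turned under LPS and DSF from 0.20 against libraries 3 and 4 to -0.59 against libraries 1 and 2. The Phgdh call under IL-4+anti-CD40 and DSF, 1 of the 5 higher there, was lost in 6 of the 8 omissions of a library (without unstimulated replicate 3 or 4 or any 1 of the DSF libraries, 0.34 to 0.60 over all 8) and was 0.90 against unstimulated libraries 3 and 4 and 0.11 (adjusted p = 0.103) against libraries 1 and 2. Mthfd1 under IL-4+anti-CD40 and DSF was at -0.03 and -0.34 against these pairs. Psph was lower under LPS and DSF by 0.50 (SE 0.14, adjusted p = 0.0101). With total counts alone, Phgdh (-0.64) and Mthfd1l (-0.62) also passed as lower under LPS and DSF and Mthfd1 (-0.48) under IL-4+anti-CD40 and DSF, where the call of Phgdh was lost (0.16).

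By mean FPKM, Shmt2 rose in the order unstimulated (41.8 ± 18.1 SD, n = 4), LPS and DSF (81.8 ± 3.37), LPS (113 ± 6.98), IL-4+anti-CD40 and DSF (119 ± 7.17) and IL-4+anti-CD40 (189 ± 16.3), and only LPS and IL-4+anti-CD40 with DSF overlapped among neighbours. Mthfd2 had the order unstimulated (11.9 ± 7.27), LPS (38.2 ± 0.75), LPS and DSF (52.7 ± 3.81), IL-4+anti-CD40 (58.9 ± 2.61) and IL-4+anti-CD40 and DSF (66.2 ± 3.81), with no overlap between neighbours. Mthfd1 began with LPS and DSF (11.5 ± 0.44) and IL-4+anti-CD40 and DSF (14.1 ± 0.69), the latter overlapping the unstimulated libraries (16.03 ± 1.89), followed by LPS (27.8 ± 0.28) and IL-4+anti-CD40 (36.2 ± 4.60). The highest group was IL-4+anti-CD40 without DSF for every gene except Mthfd2.

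The gene nearest to each member in pattern was sought over the 5 group means of log2 CPM, centred per gene, among 15574 other genes. For Mthfd1 it was Slc25a1, the mitochondrial citrate carrier (root mean square difference 0.031), and for Mthfd2 it was Insig1, a regulator of sterol synthesis (0.078). For Psat1 it was Lars, the leucyl-tRNA synthetase (0.057), for Psph Fads1, a fatty acid desaturase (0.055), for Phgdh 6330537M06Rik (0.038), for Shmt1 Ccdc116 (0.069), for Shmt2 Gm336 (0.071) and for Mthfd1l Gm44986 (0.041). Shmt1 and Shmt2 were close to each other (0.10), with Shmt1 the gene at rank 2 from Shmt2, whereas the member nearest to Mthfd2 was Psat1, at 0.37 and rank 141.

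In experiment 2, which had 1 library per condition and so no replicate check, 7 of the 8 genes were lower with DSF under both stimuli, and Mthfd2 was higher under LPS and lower under IL-4+anti-CD40. Its FPKM were normalized separately from those of experiment 1, and DSF and ibrutinib share the stimulated library as control. Log2 ratios of counts normalized by TMM (trimmed mean of M-values) were taken for genes that averaged 10 counts or more, and 2-fold was used as the mark. With DSF under LPS, 3 of the 8 genes were 2-fold or more lower and 0 higher, where 19.5% of 14275 genes were lower and 20.3% higher. Under IL-4+anti-CD40, 7 were lower and 0 higher, where 20.3% were lower and 21.9% higher. The median log2 ratio of the 8 genes was -0.93 and -1.40, against -0.040 and -0.0083 over all genes. Of all 14275 genes, 7329 had a log2 ratio below 0 with DSF under LPS and 7185 under IL-4+anti-CD40.

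Mthfd1 had 2191 counts (26.7 FPKM) with LPS and 328 (4.28 FPKM) with LPS and DSF, and 3082 counts (37.6 FPKM) under IL-4+anti-CD40 and 335 (5.27 FPKM) with DSF added. The ratios were -2.63 (95% Poisson interval -2.81 to -2.47, counting error only) and -2.82 (-2.99 to -2.66), or 6.19-fold and 7.05-fold lower. Unstimulated B cells had 15.2 FPKM, so both DSF libraries were below it.

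Mthfd2 was again the member apart from the others. It had 2675 counts (41.5 FPKM) with LPS and 3314 (55.1 FPKM) with LPS and DSF, and 4070 counts (63.3 FPKM) under IL-4+anti-CD40 and 2811 (56.4 FPKM) with DSF added. Its log2 ratios were 0.41 (0.34 to 0.49) and -0.16 (-0.23 to -0.09), the latter in the other direction from experiment 1. With total counts alone they were 0.10 and -0.40.

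Shmt2 went from 132 to 66.8 FPKM with LPS and from 226 to 73.6 under IL-4+anti-CD40 (log2 ratios -0.97 and -1.61), and Mthfd1l from 28.0 to 12.6 and from 39.7 to 12.2 (-1.14 and -1.69). Shmt1 went from 10.9 to 8.30 FPKM and from 15.1 to 6.39 (-0.39 and -1.22). These 3 genes were lower with DSF under both stimuli, as in experiment 1.

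The serine synthesis genes were lower with DSF in experiment 2 under both stimuli. Phgdh went from 58.5 to 28.4 FPKM with LPS and from 97.1 to 32.3 under IL-4+anti-CD40 (-1.04 and -1.57), and Psph from 3.58 to 1.93 and from 5.50 to 2.58 (-0.88 and -1.07). Psat1 went from 26.2 to 21.0 FPKM and from 42.7 to 19.6 (-0.32 and -1.11), so its value with LPS lay below 0 here and above 0 in experiment 1. The ratio of Mthfd2 to Mthfd1 was 1.56 with LPS, 12.9 when DSF was added, 1.68 under IL-4+anti-CD40 and 10.7 when DSF was added to it. In the same libraries, the share of counts on mitochondrially encoded genes was 1.63%, 2.53%, 1.39% and 2.49%, and B cell markers summed to 4607, 3288, 4263 and 3474 CPM. In the same order, myeloid markers summed to 14.8, 60.6, 15.3 and 55.6 CPM, erythroid markers to 26.2, 66.8, 23.8 and 57.1 CPM and plasma cell markers to 248.99, 526, 324 and 531 CPM. The part of all these in the ratios with DSF was not tested.

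With ibrutinib, 0 of the 8 genes passed 2-fold in either direction under LPS, where 2.81% of 14275 genes were higher and 2.47% lower, or under IL-4+anti-CD40, where 2.23% were higher and 1.69% lower. All 8 log2 ratios were below 0 under both stimuli, from -0.53 (Psat1) to -0.26 (Psph) with LPS and from -0.41 (Shmt1) to -0.12 (Mthfd2) under IL-4+anti-CD40. Their medians were -0.35 and -0.25, against 0.0095 and 0.0043 over all genes. Of all 14275 genes, 6933 were below 0 with LPS and 7039 under IL-4+anti-CD40. Mthfd1 had 19.9 FPKM under LPS and 28.9 under IL-4+anti-CD40 with ibrutinib added (-0.40 and -0.37), and the ratio of Mthfd2 to Mthfd1 was 1.66 and 2.00. B cell markers summed to 6087 and 6267 CPM in these libraries.

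**Figure D5:**
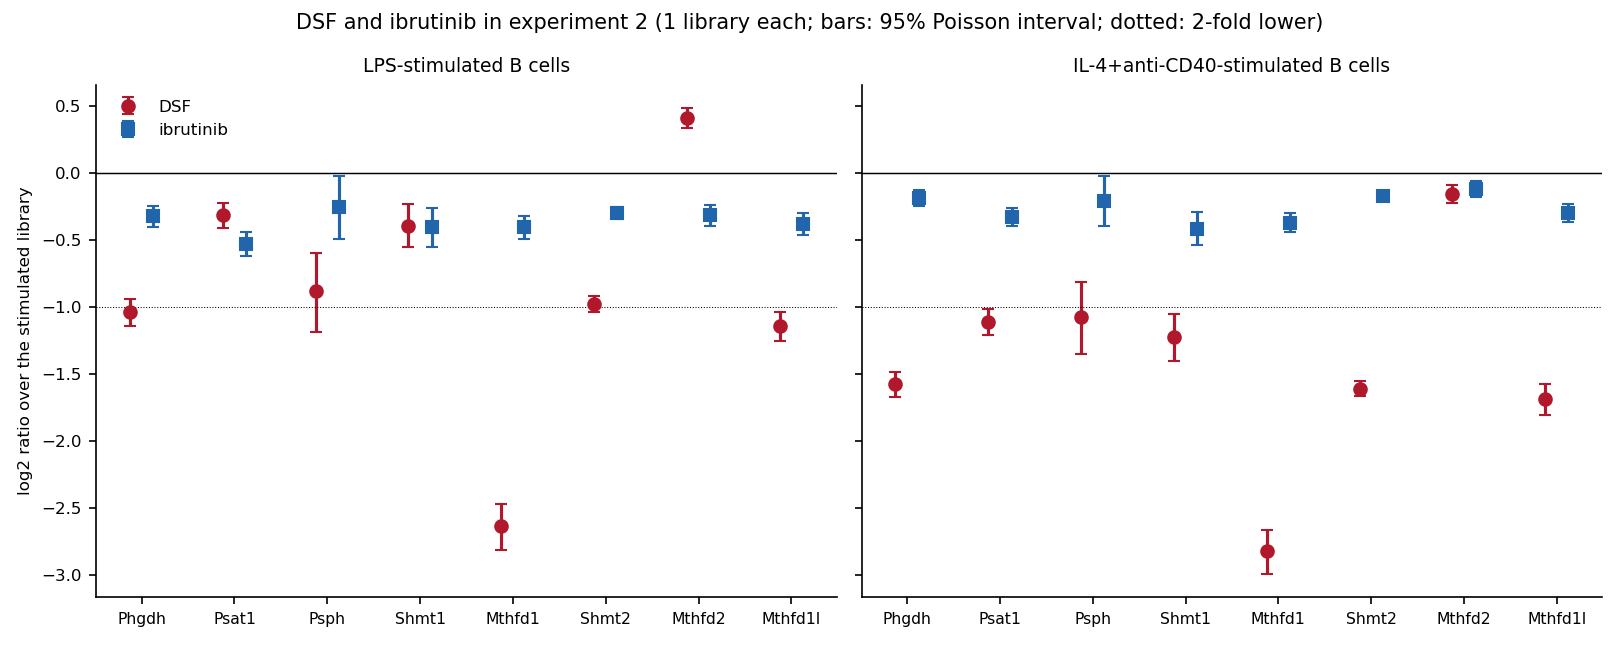
Log2 ratio (vertical axis) of each gene with DSF (circles) or ibrutinib (squares) over the same stimulated library in experiment 2, 1 library each, with 95% Poisson intervals for counting error. Mthfd1 with DSF lies at -2.63 and -2.82, and all ibrutinib values lie between -0.53 and -0.12.

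Mthfd2 had the highest ratio of the 8 genes under both stimuli in experiment 2 too. With LPS, 4 of 8 genes were 2-fold or more higher and 0 lower, where 8.62% of genes were higher and 9.88% lower, and under IL-4+anti-CD40 5 were higher and 0 lower, where 10.7% were higher and 13.7% lower. Mthfd2 went from 12.7 FPKM in unstimulated B cells to 41.5 and 63.3 (1.71 and 2.31), and Shmt2 from 60.4 to 132 and 226 (1.13 and 1.89). Phgdh stood at 56.5, 58.5 and 97.1 FPKM (0.06 and 0.77).

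Other genes of serine and one-carbon metabolism were followed as a list of 42, of which 33 were tested with DSF under LPS and 34 under IL-4+anti-CD40. With DSF, 16 fell and 8 rose under LPS, and 20 fell and 8 rose under IL-4+anti-CD40, with median log2 fold changes of -0.36 and -0.43. Over all genes tested, 36.0% fell and 35.1% rose under LPS and 31.6% fell and 30.1% rose under IL-4+anti-CD40, and the counts by role below stand beside the same shares. All 3 users of formyl-tetrahydrofolate fell under both: Gart, which carries out steps of purine synthesis (-1.54 and -1.53, adjusted p = 2.17e-20 and 1.35e-06), Atic, which closes the purine ring (-0.63 and -0.76), and Mtfmt, which formylates the mitochondrial initiator tRNA (-1.07 and -0.92). Gart stood at 35.1 to 38.8 FPKM with LPS and 12.3 to 12.8 with DSF added, and at 32.8 to 48.1 and 13.4 to 15.6 FPKM under IL-4+anti-CD40.

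Of the genes of folate transport and glutamate tailing, 3 of 4 tested fell under LPS and 4 of 5 under IL-4+anti-CD40. Slc19a1, the reduced folate carrier, fell by 1.18 and 1.34 and Fpgs, which adds glutamate tails to folates, by 1.13 and 1.13. Slc46a1, the proton-coupled folate transporter, fell by 1.57 under IL-4+anti-CD40 (SE 0.45, adjusted p = 0.0104) and was too low to be tested under LPS. Its level was low, with a mean of 0.66 CPM over the unstimulated libraries.

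Of 6 tested folate interconversion genes, 2 rose and 1 fell under LPS and 2 rose and 3 fell under IL-4+anti-CD40. Mthfs, which returns 5-formyl-tetrahydrofolate to the pool of active folates, fell by 0.75 and 1.29 on the log2 scale.

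Of 9 tested genes of the methionine cycle and transsulfuration, 2 rose and 5 fell under each stimulus, with Mtrr, methionine synthase reductase, at -1.33 and -1.25 and Mat2a, which makes S-adenosylmethionine, at 0.93 and 0.52. Of 7 tested genes of glycine cleavage and serine or glycine handling, 1 rose and 3 fell under each, near the shares over all genes. Among them, Sfxn1, a mitochondrial serine carrier, fell by 1.16 and 1.25. Of the 4 serine importers, 3 rose and 1 fell under LPS and 2 rose and 2 fell under IL-4+anti-CD40, with Slc38a1 at 1.39 and 0.61, Slc38a2 at 0.99 and 0.66 and Slc1a4 at -0.36 and -0.78.

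With the stimuli alone, 20 of 34 tested genes of this list rose and 7 fell with LPS, and 22 rose and 6 fell under IL-4+anti-CD40, with medians of 0.56 and 0.67, where 29.6% of all genes rose and 33.3% fell with LPS and 30.4% and 32.1% under IL-4+anti-CD40. Slc19a1 rose by 1.89 and 2.14, Mat2a by 1.79 and 2.01, and Slc1a4 by 2.89 under IL-4+anti-CD40. Slc1a4 had a mean of 13.4 CPM in unstimulated libraries 1 and 2 and 0.90 in 3 and 4, and its rise was 5.88 against libraries 3 and 4 and 1.96 against libraries 1 and 2. Amt, an enzyme of glycine cleavage, fell by 1.90 and 1.52, and the carrier Sfxn3 by 1.34 and 1.78. Under LPS, Slc19a1 was at 2.70 and 1.39, Amt at -2.25 and -1.37 and Sfxn3 at -0.68 and -1.78 against unstimulated libraries 3 and 4 and against libraries 1 and 2.

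ATF4 is a transcription factor of the amino acid response for which Phgdh, Psat1, Shmt2 and Mthfd2 are known targets. Atf4 and other genes that ATF4 is known to bind were listed for comparison. Of 18 tested, 14 rose and 1 fell with DSF under LPS (median 0.63), and 9 rose and 5 fell under IL-4+anti-CD40 (median 0.18), beside 35.1% raised and 36.0% lowered of all genes under LPS and 30.1% and 31.6% under IL-4+anti-CD40. Atf4 itself rose by 0.56 and 0.39, Slc3a2, a subunit of amino acid carriers, by 2.00 and 1.41, Ddit3, which overlaps Mars, by 2.01 and 1.24, and Slc7a11, the cystine carrier, by 1.22 and 1.96. Asns, asparagine synthetase, was at 0.17 (not passing) under LPS and fell by 0.24 under IL-4+anti-CD40. Nupr1 fell under LPS (-0.46) and rose under IL-4+anti-CD40 (0.77). Atf5 (-0.77), which overlaps Nup62 and Il4i1, and Aldh18a1 (-0.43) fell under IL-4+anti-CD40.

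With LPS, 11 of these 18 genes rose and 1 fell (median 1.00), and 15 rose and 0 fell under IL-4+anti-CD40 (median 1.59), beside 29.6% raised and 33.3% lowered of all genes with LPS and 30.4% and 32.1% under IL-4+anti-CD40. Chac1 rose by 2.33 and 3.60, Slc7a5 by 2.36 with LPS and Trib3 by 2.97 under IL-4+anti-CD40, whereas Ddit4 fell by 2.83 with LPS. Against unstimulated libraries 3 and 4 and against libraries 1 and 2, Chac1 was at 4.58 and 1.501 and Slc7a5 at 3.83 and 1.64 with LPS, Ddit4 at -3.41 and -1.75 with LPS, and Trib3 at 5.71 and 2.07 under IL-4+anti-CD40. The list was 0.90 higher by its median in unstimulated libraries 1 and 2 than in 3 and 4. There, 8 of its 18 genes were 2-fold or more higher and 1 lower, beside 7.70% and 8.38% of all genes.

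A list of 19 genes held Myc and other genes that it is known to raise. All 19 rose with either stimulus (medians 1.60 and 1.69), led by Ccnd2, a cyclin (4.16 and 4.31), and Myc (3.65 and 2.41). Of all genes, 29.6% rose with LPS and 30.4% under IL-4+anti-CD40. By its median the Myc list was 0.63 higher in unstimulated libraries 1 and 2 than in 3 and 4. There, 3 of its 19 genes were 2-fold or more higher and 0 lower, beside 7.70% and 8.38% of all genes. With DSF, 15 fell and 1 rose under LPS and 17 fell and 1 rose under IL-4+anti-CD40 (medians -0.40 and -0.59), where 36.0% and 31.6% of all genes fell. Ccnd2 fell by 0.97 and 1.70, Srm, spermidine synthase, by 0.93 under LPS and Polr1b, a subunit of RNA polymerase I, by 1.13 under IL-4+anti-CD40. The gene that rose was Hspd1, a mitochondrial chaperonin (0.95 and 0.84).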

How the data were processed

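Per the labels and the study's methods, the authors trimmed reads with Fastp, aligned them to mm10 with HISAT2 2.0.5 and deposited whole-number read counts per gene from featureCounts 1.5.0-p3. The annotation release and the strand setting are not given in the sources used here. The deposited FPKM values were made by the authors from gene length and count, separately in each experiment, and were used here only for levels.

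Groups were taken from the sample labels, and 0 sample columns were left unused. Counts of experiment 1 were tested in R 4.3.3 with edgeR 4.0.16 (filterByExpr, TMM, quasi-likelihood test, Benjamini-Hochberg over all genes), with 8 libraries in each fit and 16 in the interaction. In experiment 2, log2 ratios of TMM-normalized counts (prior count 2, mean of at least 10 counts) were given with 95% exact Poisson intervals, which cover counting error only. DESeq2 1.42.0, other scalings, other filters, a single fit of all 20 libraries, a replicate block and the omission of each library were run as alternatives. Omitting a pair of unstimulated or of IL-4+anti-CD40 libraries was chosen after the data were seen. The edgeR and DESeq2 steps were tested on simulated counts. Tables and motif counts were made in Python 3.11.15 with pandas 2.3.3 and scipy 1.17.1.

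The 8 genes and the lists of other one-carbon, ATF4 and Myc genes were chosen with earlier results of these data known. All 8 were named, together with the nearest gene in pattern and, from each list, the 2 genes with the largest rise and the 2 with the largest fall in each comparison. Other genes were named after their values were seen, and 1 gene that the rule names is not reported here. For Ddit3 and Gcat, whose symbols occur more than once, the entry with the most counts was used. Depth was 16049295 to 24619776 counts per library, and the least-counted gene of the 8, Psph, had at least 135. Libraries of the same group differed by more than counting noise (chi-square per gene 2.86 to 90.8), so none was counted as a duplicate.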

Additional observations from a re-analysis of the deposited data

Results flagged for a closer look

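Mthfd1l had 1 LPS and DSF library, replicate 1 at 13.6 FPKM, that lay far from the other 3 (15.3 to 15.6 FPKM). Its gap to the nearest library was 0.866 of the range of the group, above Dixon's 95% critical value for 4 samples. This was the 1 such library among 40 gene and group pairs tested, of which chance flags about 1 in 20. Without it, the effect of DSF under LPS on Mthfd1l was -0.50 on the log2 scale (edgeR adjusted p = 1.67e-10).

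The effect of DSF differed between the stimuli, by the interaction test in edgeR, for 3 of the 8 genes and for 13 of the 26 list genes named by rule, where 7.92% of 15130 genes were lower and 6.96% higher. These 26 had been picked for large changes in single comparisons, DSF under 1 stimulus included, so their share is a description. With all 20 libraries in a single fit, 0 of the 8 genes passed. Given as the effect under IL-4+anti-CD40 minus that under LPS, on the log2 scale, the differences of the 8 genes that passed were -0.46 for Psat1, -0.35 for Shmt1 and -0.33 for Mthfd2. Among other one-carbon genes they were -0.40 for Mat2a, -0.42 for Slc1a4, -0.77 for Slc38a1 and -0.33 for Slc38a2. Among the ATF4 genes they were -0.58 for Chac1, -0.76 for Ddit3, -1.03 for Ddit4, -0.68 for Atf5, -0.36 for Slc7a5, -0.58 for Slc3a2, -0.36 for Aldh18a1 and 1.25 for Nupr1. Ccnd2, from the Myc genes, differed by -0.73. Nupr1 was the only one of the 13 with a more positive effect under IL-4+anti-CD40.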

How the results depend on the processing

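The fall of Mthfd1, Shmt1, Shmt2 and Mthfd1l with DSF kept its direction and its side of the adjusted p threshold under every alternative run for both stimuli. So did the rise of Mthfd2 under LPS, except with all 20 libraries in a single fit (0.47, adjusted p = 0.14). In the main fits only the fall of Mthfd1 was at least 1 on the log2 scale. The cause of the changes below was not tested. Where only calls of at least 1 on the log2 scale were counted, the 8 genes gave 0 lower with LPS, 0 higher and 1 lower with DSF under each stimulus, 2 higher and 0 lower with LPS and DSF, 0 higher for IL-4+anti-CD40 against LPS and 0 in the interaction. The other one-carbon genes gave 8 higher and 2 lower with LPS, 14 and 3 under IL-4+anti-CD40, and 3 and 6 or 1 and 8 with DSF. With DSF the ATF4 genes gave 6 higher and 0 lower or 3 and 0, and the Myc genes 0 and 0 or 0 and 3. With total counts alone, the 8 genes gave 0 higher with DSF under IL-4+anti-CD40, 4 lower with LPS and DSF, 1 lower under IL-4+anti-CD40 and DSF and, in experiment 2, 5 at least 2-fold lower with DSF under LPS, and the ATF4 genes gave 2 lower with LPS, 1 under IL-4+anti-CD40 and 3 with DSF under LPS. With DESeq2, and with its size factors in edgeR, 2 Myc genes rose with DSF under LPS and 3 ATF4 genes fell with DSF under IL-4+anti-CD40, and DESeq2 also gave 1 ATF4 gene lower under IL-4+anti-CD40. With no filter, 2 ATF4 genes fell with DSF under LPS and 0 of the 8 genes rose under IL-4+anti-CD40, and with 10 counts in every library 2 Myc genes rose and 2 ATF4 genes fell in these comparisons. With all 20 libraries in a single fit, 1 of the 8 genes rose with DSF under LPS, 0 rose under IL-4+anti-CD40 and 0 passed the interaction, while the ATF4 genes gave 8 higher and 0 lower, then 2 lower, and 1 lower under IL-4+anti-CD40. Without unstimulated replicates 3 and 4, the 8 genes gave 2 lower with LPS, 4 with LPS and DSF and 2 under IL-4+anti-CD40 and DSF, and without replicates 1 and 2 the values of Phgdh turned to 0.42 with LPS and 0.20 with LPS and DSF and that of Mthfd1l to 0.26 under IL-4+anti-CD40 and DSF. Without IL-4+anti-CD40 replicates 3 and 4, 0 of the 8 genes rose with DSF and 6 passed the interaction.

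Over the omission of each library, the counts of the 8 genes were 0 to 1 higher with DSF under IL-4+anti-CD40, 0 to 1 lower under IL-4+anti-CD40 and DSF, and 3 to 5 lower in the interaction. Other one-carbon genes lower with LPS were 4 to 7, and ATF4 genes lower were 0 to 1 under IL-4+anti-CD40, 1 to 2 with DSF under LPS and 2 to 4 with DSF under IL-4+anti-CD40. Deviations of same-numbered libraries from their group means were at most weakly correlated (-0.056 to 0.17). The highest values, 0.17 and 0.15, lay between IL-4+anti-CD40 libraries without and with DSF, at replicates 1 and 4. Weak correlations cannot exclude that the numbers pair libraries, and the labels do not say. With the replicate block, DSF under IL-4+anti-CD40 raised 0 of the 8 genes and lowered 3 ATF4 genes. The block moved Mthfd2 to 0.15 (adjusted p = 0.068) and Psat1 to -0.13 (0.094) there, and Phgdh under IL-4+anti-CD40 and DSF to 0.52 (0.054).

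Single libraries in experiment 2 allow no test, and 4 libraries per group, not stated to come from separate mice, limit the rest. Psph, with the fewest counts, had the widest intervals.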
